A study of Mus musculus with 12 samples.

Results

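The 7 genes that code for the mouse cyclin-dependent kinase inhibitors were followed in 3 cell lines with and without SX-682. They were taken by symbol (Cdkn1a, Cdkn1b, Cdkn1c, Cdkn2a, Cdkn2b, Cdkn2c and Cdkn2d) from the 34513 genes of the deposited count table, and all 7 are rows of it. RNA from cultured mouse lines was sequenced in bulk: Melan-A (MelanA in the sample labels), a line of melanocytes that does not form tumors, and the B16F0 and B16F10 melanoma lines, of which B16F10 was selected from B16 for lung colonization. Each line was sequenced with no treatment and with SX-682, a small-molecule antagonist of the chemokine receptors CXCR1 and CXCR2, which gives 6 groups of 2 libraries. The sample labels give neither the dose nor the time of SX-682 in these cultures, and the controls are called untreated. Melanocytes are represented by a single line and melanoma by 2 related B16 lines. A difference between Melan-A and the B16 lines is therefore a difference between lines and not between normal and tumor melanocytes in general. The labels do not say whether the 2 libraries of a group came from separate cultures, so p-values measure only the spread between these libraries, which may be technical.

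These proteins bind and inhibit the kinases that drive cells through the division cycle, and they fall into a pair of families. The INK4 proteins p16Ink4a (from Cdkn2a), p15 (Cdkn2b), p18 (Cdkn2c) and p19Ink4d (Cdkn2d) bind CDK4 and CDK6 and keep them from pairing with D-type cyclins, which holds the retinoblastoma protein active and E2F factors silent. The Cip/Kip proteins p21 (Cdkn1a), p27 (Cdkn1b) and p57 (Cdkn1c) bind assembled cyclin-kinase complexes, above all those of CDK2. Cdkn2a also codes for p19Arf, which is read in another frame from another first exon and stabilizes p53 by binding MDM2, and p21 is a classical p53 target. In the melanocyte lineage, p16 and p15 are linked to the growth arrest of nevi, and loss of CDKN2A is among the best known lesions of melanoma.

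The positions of the 7 genes are on GRCm38 (mm10), as the table and the GENCODE M21 annotation both give them. Cdkn2a (chr4:89274471-89294653) and Cdkn2b (chr4:89306299-89311039) are neighbors on the minus strand of chromosome 4, and Cdkn2c (chr4:109660876-109667189) lies on the same strand further along. Cdkn1a (chr17:29090976-29100727) and Cdkn1b (chr6:134920401-134925513) are on the plus strand, and Cdkn1c (chr7:143458339-143461050) and Cdkn2d (chr9:21288410-21291407) on the minus strand. Exons of Cdkn1a and Cdkn1c overlap genes on the opposite strand in GENCODE M21, over 273 and 625 bases respectively, and whether the counting used strand is not given in the sources used here. GENCODE M21 has 2 transcripts of Cdkn2a with separate first exons, so a count for the gene cannot separate p16Ink4a from p19Arf.

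RefSeq promoter windows (GRCm38.p6, from 250 bases before to 50 bases after a start site) were found for 6 of the 7 genes, with 9 windows in all. The windows shown are those of the genes that were not detected together in the B16 lines (Cdkn2a and Cdkn2b) and of the genes with the SX-682 changes described below (Cdkn1a, Cdkn1b and Cdkn2c), and of the 2 windows of Cdkn2c the upstream one is shown. They are written 5′ to 3′ on the strand of the gene. Capitals mark the GC box GGGCGG, the CCAAT box CCAAT and the p53 half-site consensus, each searched on both strands.
Cdkn1a, upstream start (chr17:29090729-29091028, plus strand): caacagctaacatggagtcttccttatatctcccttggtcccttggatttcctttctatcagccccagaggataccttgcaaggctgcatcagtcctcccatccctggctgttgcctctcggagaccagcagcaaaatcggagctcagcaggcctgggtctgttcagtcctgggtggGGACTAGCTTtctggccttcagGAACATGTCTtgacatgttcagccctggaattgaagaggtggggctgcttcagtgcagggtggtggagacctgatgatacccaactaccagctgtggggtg
Cdkn1a, downstream start (chr17:29093519-29093818, plus strand): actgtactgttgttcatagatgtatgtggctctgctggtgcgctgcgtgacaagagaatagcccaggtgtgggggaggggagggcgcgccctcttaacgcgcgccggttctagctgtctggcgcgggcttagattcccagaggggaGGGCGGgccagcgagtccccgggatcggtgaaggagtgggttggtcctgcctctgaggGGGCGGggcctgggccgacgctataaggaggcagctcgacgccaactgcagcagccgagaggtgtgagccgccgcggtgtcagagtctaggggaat
Cdkn1b (chr6:134920151-134920450, plus strand): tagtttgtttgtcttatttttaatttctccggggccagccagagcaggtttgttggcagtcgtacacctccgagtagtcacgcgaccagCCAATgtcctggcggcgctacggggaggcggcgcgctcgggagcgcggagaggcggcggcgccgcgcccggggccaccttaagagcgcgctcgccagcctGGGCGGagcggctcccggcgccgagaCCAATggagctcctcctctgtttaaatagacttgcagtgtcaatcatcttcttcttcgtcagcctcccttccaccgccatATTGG
Cdkn2a, p19Arf start (chr4:89294570-89294869, minus strand): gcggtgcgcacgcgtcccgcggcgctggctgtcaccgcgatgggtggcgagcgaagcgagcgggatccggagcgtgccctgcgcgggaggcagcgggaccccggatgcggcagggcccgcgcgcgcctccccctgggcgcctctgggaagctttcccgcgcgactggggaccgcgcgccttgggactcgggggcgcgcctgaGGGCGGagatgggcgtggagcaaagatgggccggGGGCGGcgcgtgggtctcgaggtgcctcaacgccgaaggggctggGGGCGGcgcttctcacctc
Cdkn2a, p16Ink4a start (chr4:89282143-89282442, minus strand): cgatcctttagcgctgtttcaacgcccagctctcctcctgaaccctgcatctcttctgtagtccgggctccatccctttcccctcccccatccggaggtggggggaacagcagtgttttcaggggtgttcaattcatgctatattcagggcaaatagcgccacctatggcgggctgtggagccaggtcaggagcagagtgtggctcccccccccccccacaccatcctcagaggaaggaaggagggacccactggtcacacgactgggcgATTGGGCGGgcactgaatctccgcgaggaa
Cdkn2b (chr4:89310983-89311282, minus strand): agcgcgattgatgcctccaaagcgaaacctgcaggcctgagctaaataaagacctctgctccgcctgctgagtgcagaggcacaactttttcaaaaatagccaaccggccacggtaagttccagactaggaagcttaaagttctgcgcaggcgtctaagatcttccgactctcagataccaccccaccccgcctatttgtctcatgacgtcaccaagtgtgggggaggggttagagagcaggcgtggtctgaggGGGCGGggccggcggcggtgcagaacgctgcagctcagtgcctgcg
Cdkn2c, upstream start (chr4:109666707-109667006, minus strand): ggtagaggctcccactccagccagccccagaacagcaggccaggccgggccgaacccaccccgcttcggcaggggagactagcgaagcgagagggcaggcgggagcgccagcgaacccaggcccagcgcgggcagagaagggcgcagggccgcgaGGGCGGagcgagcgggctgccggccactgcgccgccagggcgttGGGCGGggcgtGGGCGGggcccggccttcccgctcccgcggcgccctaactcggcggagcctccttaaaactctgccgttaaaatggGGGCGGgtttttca
The p53 half-site, the decamer that p53 binds in pairs, matched at positions -73 and -51 from the upstream start of Cdkn1a and is found in 8.36% of 32851 RefSeq promoter windows of this length. No match to the strict p53 site of 2 adjoining half-sites lay in the window, and only 3 of all the windows held one. This search allowed no mismatch. The decamer directly after the match at -51 departs from the half-site consensus only in its first base. A site of 2 adjoining half-sites with a mismatch was therefore not looked for. The downstream start of Cdkn1a had 2 GC boxes, and the p19Arf start of Cdkn2a had 3. The p16Ink4a start had 1 GC box that overlapped a CCAAT box, Cdkn2b had 1 GC box, and Cdkn1b had 1 GC box and 3 CCAAT boxes. The upstream start of Cdkn2c had 4 GC boxes. A GC box is found in 35.7% and a CCAAT box in 37.4% of all the windows. These matches describe the letters of the windows and say nothing of whether a factor was bound.

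The libraries held 48876982 to 85322092 counted reads. Levels are given as CPM, a gene's counts relative to the library's total after TMM scaling, which corrects for differences in RNA composition between libraries. A floor of 3 counts per library, the number that a count of 0 allows, was 0.033 to 0.0623 CPM, and this floor covers counting error only. Groups were compared with edgeR's quasi-likelihood test over the 18338 genes that passed its expression filter, with p-values adjusted over all of them (Benjamini-Hochberg) and a threshold of 0.05. Replicates lay close together (biological coefficient of variation 2.78%), so that small changes could pass. An exact permutation test of 2 against 2 libraries cannot give a 2-sided p under 0.333, and the tests therefore rest on a spread shared across genes and groups. All 7 genes passed the filter, Cdkn2a and Cdkn2b only through the Melan-A libraries. All 8 listed melanocyte markers were over the floor in every library, with a summed level of 1351 to 1382 CPM in untreated Melan-A, 19274 to 19371 CPM in untreated B16F0 and 25123 to 25153 CPM in untreated B16F10. The 5 listed fibroblast markers summed to 107 to 108 CPM in untreated Melan-A, 16.1 to 16.7 CPM in B16F0 and 8.43 to 9.72 CPM in B16F10, and the keratinocyte, immune and endothelial markers each summed to at most 3.39 CPM in any library. The part of these marker levels in the differences between lines was not tested.

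In untreated cells, the first comparison asked how the inhibitor genes differ between the lines. Both INK4 genes at the Cdkn2a locus were counted in Melan-A and at 0 in every B16 library, Cdkn1c was lower in B16F0 and at 0 in B16F10, and Cdkn1a and Cdkn2d were higher in both B16 lines. Of the 7 genes, all 7 differed between B16F0 and Melan-A (2 higher and 5 lower in B16F0), where 75.9% of all genes tested were called, 35.3% higher and 40.6% lower. All 7 also differed between B16F10 and Melan-A (2 higher and 5 lower in B16F10), where 74.2% of all genes were called, 33.4% higher and 40.8% lower. Between B16F10 and B16F0, 5 genes could be compared and 4 differed (2 higher and 2 lower in B16F10), with 62.0% of all genes called, 30.8% higher and 31.2% lower. With so large a share of all genes called, the number of inhibitor genes called is not in itself a result, and Cdkn2a and Cdkn2b could only be called through the line that expresses them. In bulk RNA, fewer cells that express a gene and less RNA per cell cannot be told apart.

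**Figure D1:**
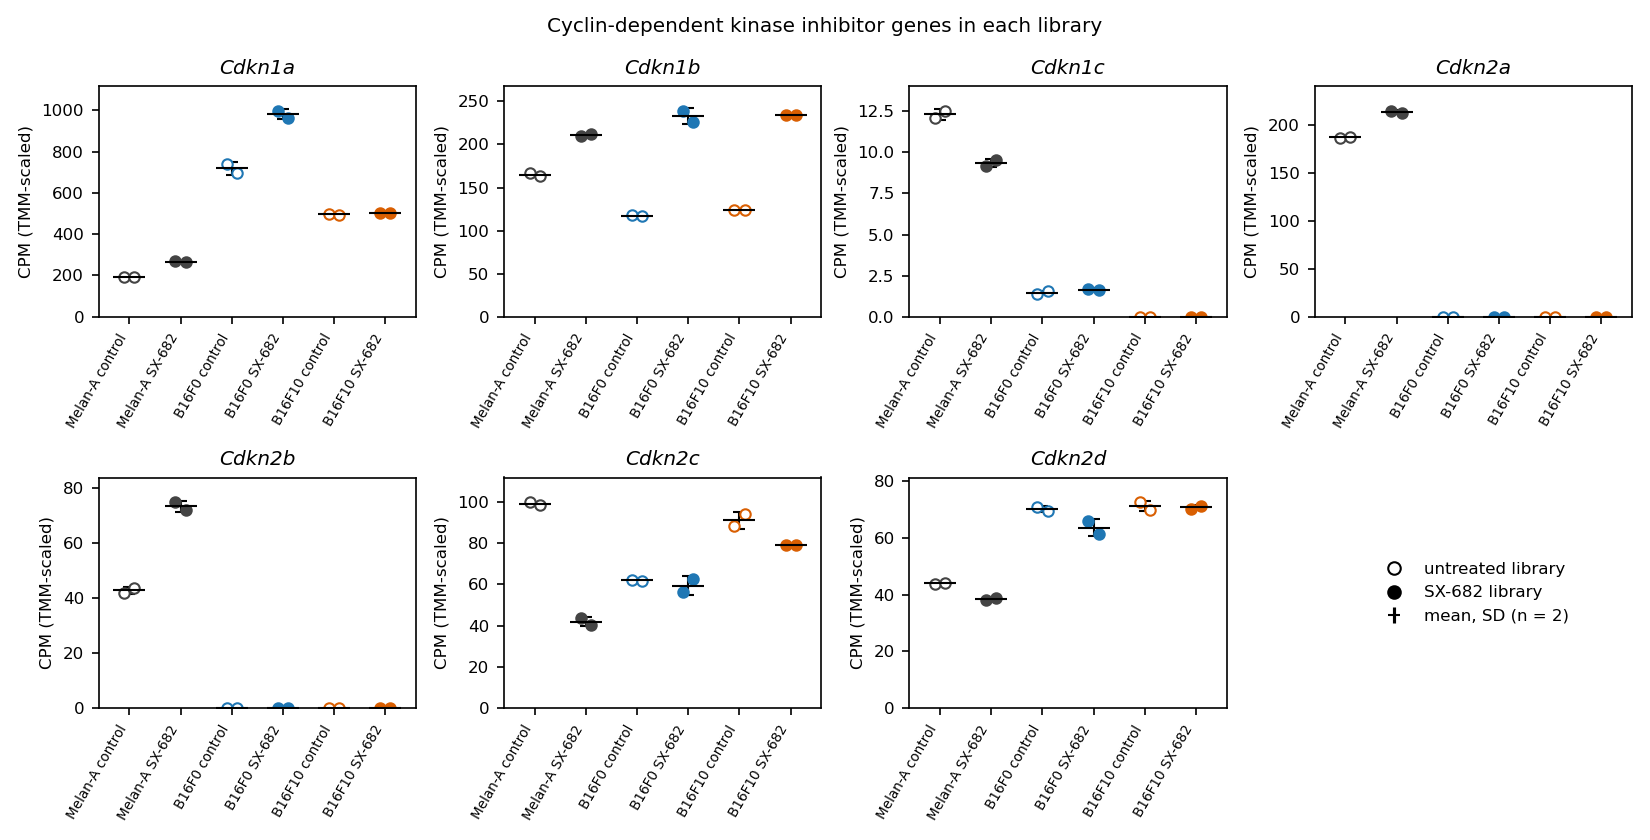
Level of each inhibitor gene in CPM after TMM scaling (vertical axes, linear from 0) in the 12 libraries, with open points for untreated and filled points for SX-682 libraries, and bars for the mean and SD of 2 libraries. Cdkn2a and Cdkn2b are at 0 in all 8 B16 libraries, and Cdkn1b is higher with SX-682 in every line.

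Cdkn2a, which codes for p16Ink4a and p19Arf, had 16108 and 17002 counts in the untreated Melan-A libraries (187 ± 0.414 CPM, SD, n = 2) and 15302 and 15929 counts in those with SX-682. It had 0 counts in each of the 4 B16F0 and 4 B16F10 libraries. Against the floor, the untreated level was at least 4188-fold lower in B16F0 and at least 3766-fold lower in B16F10 than in Melan-A. Cdkn2b, which codes for the CDK4 and CDK6 inhibitor p15, had 3617 and 3972 counts in untreated Melan-A (42.8 ± 1.29 CPM, SD, n = 2) and likewise 0 counts in all 8 B16 libraries. It was at least 959-fold lower in B16F0 and at least 863-fold lower in B16F10. Neither gene can be compared between the B16 lines, since both are at 0 there.

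The genes around Cdkn2a and Cdkn2b were looked at in the same libraries. A run of 5 genes in the table, from Tgif2-ps1 to Gm12609 (chr4:89216864-89399880, 183 kb), had 0 counts in all 8 B16 libraries, and both inhibitor genes and the p19Arf, p16Ink4a and Cdkn2b start sites lie in it. Of these 5 genes, 4 were over the floor in all 4 Melan-A libraries: Cdkn2a, Cdkn2b, Gm12606 (38 to 126 counts) and Gm12609 (25 to 60 counts). Tgif2-ps1 had at most 1 count in Melan-A and so cannot show a loss. On the side of the run with the lower coordinates, Mtap, which codes for a methionine salvage enzyme and ends 35.8 kb before the run, had 10971 to 22996 counts in B16F0 and 18117 to 33034 counts in B16F10. The level of Mtap was thus high in the B16 lines next to a stretch in which nothing was counted.

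On the other side, the noncoding Gm12610 had 80 to 105 counts in the Melan-A libraries, 0 in B16F0 and 0 to 4 in B16F10. Dmrta1 had 52 to 73 counts in Melan-A and at most 1 in a B16 library, and Zfp352 had 63 to 78 in Melan-A and 0 in all 8 B16 libraries. The counts of these genes in Melan-A were low, and no gene on this side within 1 Mb was over the floor in a B16F0 library. Further out on the Mtap side, Klhl9 had 7983 to 8573 counts in Melan-A, 3272 to 4936 in B16F0 and 7201 to 8975 in B16F10. Focad had 1403 to 1597, 2799 to 4144 and 2504 to 3064 in the same order. Some other genes on that side were low in B16 libraries. Gm13284 had 156 to 259 counts in Melan-A, 5 to 23 in B16F0 and 1 to 13 in B16F10, and Gm13283 100 to 122, 4 to 15 and 2 to 7. Wincr1 was low in B16F0 only, with 235 to 339, 5 to 35 and 168 to 231 counts. Within 1 Mb, 21 genes were over the floor in all Melan-A libraries, and the 5 of them at 0 in all B16 libraries were Cdkn2a and Cdkn2b themselves, Gm12606, Gm12609 and Zfp352. Without Cdkn2a and Cdkn2b, it was 3 of 19 genes. Of all 17207 genes over the floor in every Melan-A library, 353 (2.05%) were at 0 in all B16 libraries. Counts of RNA do not say what lies behind a value of 0 at the DNA level, which was not tested.

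**Figure D2:**
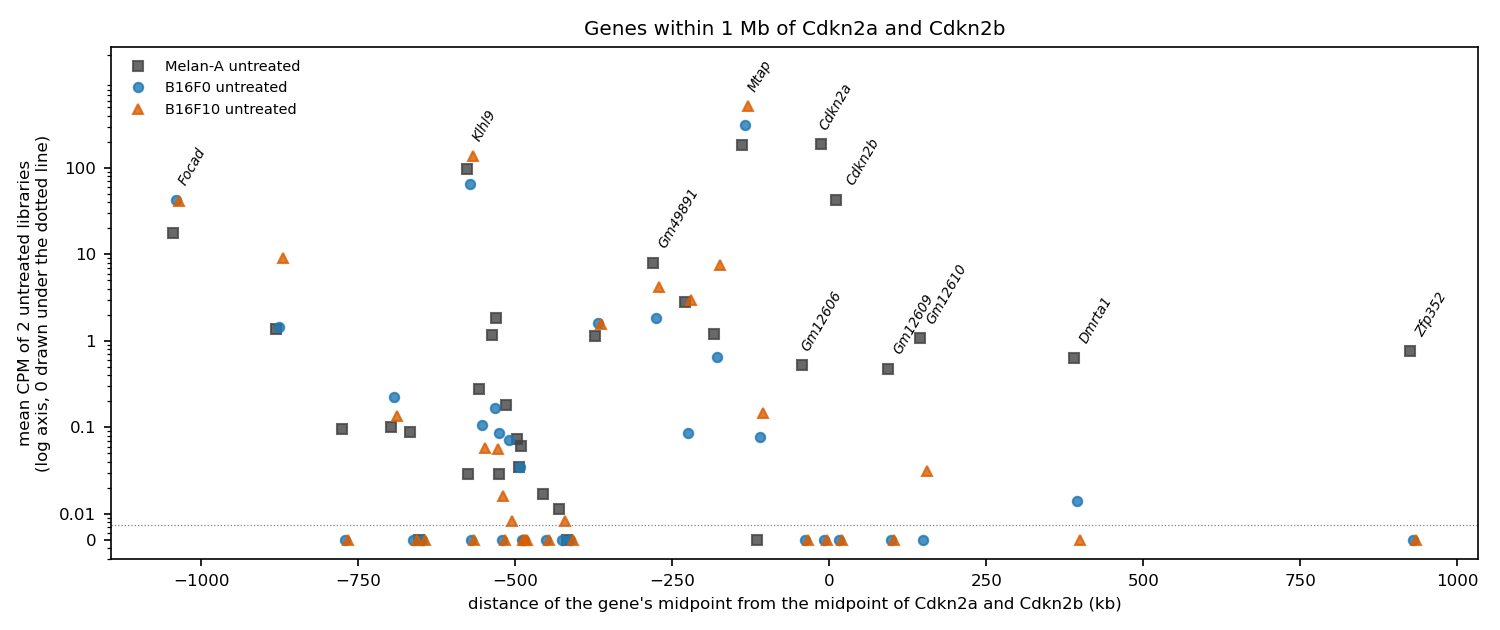
Mean CPM of the 2 untreated libraries of each line (vertical log axis, with 0 drawn under the dotted line) for genes within 1 Mb of Cdkn2a and Cdkn2b that had over 3 counts in at least 1 library, against the distance of the gene's midpoint in kb. Melan-A squares stand alone above 0 at Gm12606, Cdkn2a, Cdkn2b and Gm12609, while Mtap is counted in all 3 lines.

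The other INK4 genes were expressed in every library. Cdkn2c, which codes for p18, had 99.8 and 98.4 CPM in untreated Melan-A, 62.3 and 61.7 CPM in B16F0 and 88.2 and 93.9 CPM in B16F10. The libraries of the 3 lines did not overlap, and B16F0 was the lowest line. It was 0.68 lower on the log2 scale in B16F0 than in Melan-A (log2 fold change -0.68, SE 0.042, adjusted p = 5.8e-15) and 0.55 higher in B16F10 than in B16F0 (SE 0.043, adjusted p = 1.9e-12). The log2 fold change of -0.12 between B16F10 and Melan-A (SE 0.041, adjusted p = 0.0095) was close to the median of all genes in that comparison, -0.10, and without B16F10 control replicate 1 it was -0.07 with an adjusted p of 0.20.

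Cdkn2d, which codes for p19Ink4d, had 43.8 and 44.0 CPM in untreated Melan-A, 70.9 and 69.4 CPM in B16F0 and 72.5 and 69.8 CPM in B16F10. Every B16 library was above every Melan-A library. The log2 fold change against Melan-A was 0.68 in B16F0 (SE 0.039, adjusted p = 7.8e-16) and 0.70 in B16F10 (SE 0.039, adjusted p = 5.1e-16). The B16 lines overlapped, with a log2 difference of 0.02 and a 95% interval of -0.06 to 0.10 (adjusted p = 0.69).

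Among the Cip/Kip genes, Cdkn1a, which codes for p21, had 192 CPM in both untreated Melan-A libraries, 742 and 697 CPM in B16F0 and 497 and 495 CPM in B16F10. The order B16F0, B16F10, Melan-A held for every library. Cdkn1a was 3.75-fold higher in B16F0 than in Melan-A (log2 fold change 1.91, SE 0.026, adjusted p = 1.3e-31) and 2.58-fold higher in B16F10 (log2 fold change 1.37, SE 0.026, adjusted p = 4.7e-28). It was also lower in B16F10 than in B16F0, by a log2 fold change of -0.54 (SE 0.025, adjusted p = 8.6e-18).

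Cdkn1b, which codes for p27, had 166 and 163 CPM in untreated Melan-A, 118 and 117 CPM in B16F0 and 124 CPM in both B16F10 libraries. The B16 libraries were all below those of Melan-A. The log2 fold change against Melan-A was -0.49 in B16F0 (SE 0.028, adjusted p = 8.1e-16) and -0.40 in B16F10 (SE 0.028, adjusted p = 9.3e-14). Between the B16 lines the log2 fold change was 0.08 (SE 0.029, adjusted p = 0.012), and without scaling factors it turned to -0.0086 with an adjusted p of 0.84. The adjusted p was 0.36 with upper-quartile scaling, 0.055 with at least 10 counts in every library and 0.059 without B16F0 control replicate 2.

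Cdkn1c, which codes for p57 and lies in an imprinted region, had 1043 and 1138 counts in untreated Melan-A (12.3 ± 0.316 CPM, SD, n = 2) and 105 and 104 counts in B16F0 (1.47 ± 0.103 CPM). It had 0 counts in both untreated B16F10 libraries and 1 and 0 counts in those with SX-682. The 3 lines were thus separated by the level of this gene, with B16F10 at or under the floor. The log2 fold change in B16F0 against Melan-A was -3.06 (SE 0.14, adjusted p = 5.9e-18). In B16F10 the level was at least 248-fold lower than in Melan-A and at least 29.7-fold lower than in B16F0.

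The genes within 250 kb of Cdkn1c were examined after its values were seen. Kcnq1, which codes for a potassium channel and lies on the side with the lower coordinates, had 117 to 156 counts in Melan-A libraries and at most 3 in any B16 library. Kcnq1ot1, an imprinted noncoding RNA read from within it, had 245 to 552 counts in Melan-A, 75 to 156 in B16F0 and 124 to 163 in B16F10. The noncoding 4933417O13Rik, which lies between Kcnq1ot1 and Cdkn1c, had 188 to 228 counts in Melan-A, 0 to 6 in B16F0 and at most 1 in B16F10. Low counts of Kcnq1 and 4933417O13Rik were thus found in both B16 lines, also in B16F0, where Cdkn1c was counted. On the other side, Slc22a18, the nearest neighbor, had 1570 to 2298 counts in Melan-A, 727 to 1192 in B16F0 and 256 to 556 in B16F10. The imprinted gene Phlda2 had 83 to 110 counts in Melan-A, 115 to 143 in B16F0 and 27 to 46 in B16F10, and Nap1l4, a histone chaperone gene, had 9830 to 13992 in B16F10. Transcripts were therefore counted in B16F10 on the Slc22a18 side of Cdkn1c.

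Levels of different genes can be set side by side per length, as CPM per kilobase of exon. In untreated Melan-A, Cdkn2a was the highest of the 7 at 159 ± 0.353 CPM per kilobase (SD, n = 2), or 45.4% of the summed level of the 7 genes, followed by Cdkn1a at 54.0 ± 0.0711. Cdkn2c (36.9 ± 0.371) and Cdkn1b (36.2 ± 0.554) were next, with a difference smaller than the sum of their SDs, and Cdkn1c was the lowest at 6.03 ± 0.155. In untreated B16F0, Cdkn1a led with 203 ± 8.85 CPM per kilobase and 68.3% of the sum, and in B16F10 with 140 ± 0.473 and 56.7%. The INK4 genes made up 72.6% ± 0.177 of the sum in untreated Melan-A, 22.8% ± 0.467 in B16F0 and 32.2% ± 0.155 in B16F10 (SD, n = 2). This share holds all counts of Cdkn2a, including any from p19Arf, which cannot be separated from p16Ink4a here. The summed level of the 7 genes was 351 ± 0.549 CPM per kilobase for Melan-A, 297 ± 9.83 for B16F0 and 246 ± 0.197 for B16F10. Dividing by the longest transcript in place of all exons raised Cdkn1a to 92.2 in Melan-A, 346 in B16F0 and 238 CPM per kilobase in B16F10, and Cdkn2a to 209 in Melan-A, with the same leading gene in each line. The summed level was then 445 ± 0.598 for Melan-A and 447 ± 16.2 for B16F0, which no longer lay apart, and 353 ± 0.527 for B16F10.

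**Figure D3:**
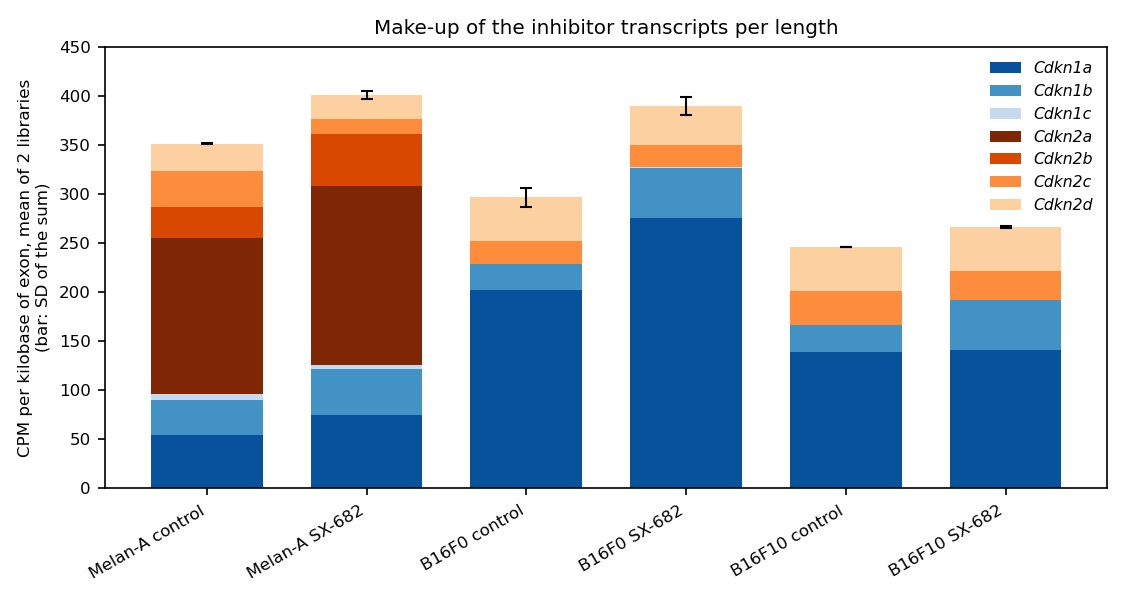
Stacked CPM per kilobase of exon for the 7 inhibitor genes (vertical axis from 0), as the mean of 2 libraries in each of the 6 groups, with the SD of the sum as a bar. Blue shades are Cip/Kip genes and brown to orange shades INK4 genes, with all counts of Cdkn2a among the latter. The share of the INK4 genes falls from 72.6% in untreated Melan-A to 22.8% in untreated B16F0.

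The next comparison asked how SX-682 changed the inhibitor genes in each line. Cdkn1b rose in all 3 lines, and more in the B16 lines than in Melan-A. Cdkn1a rose in Melan-A and B16F0 but did not pass the test in B16F10. Cdkn2c fell most in Melan-A, where Cdkn2a and Cdkn2b also rose. In Melan-A, all 7 genes changed (4 higher and 3 lower), where 48.2% of all genes tested were called. In B16F0, 3 of the 5 genes that could be compared changed (2 higher and 1 lower), with 50.1% of all genes called, and in B16F10, 2 of 4 changed (1 higher and 1 lower), with 50.8%. The shares in the B16 lines are near those of all genes. The median log2 fold change of all genes was 0 in each line. The summed melanocyte markers were at 1353 to 1361 CPM with SX-682 in Melan-A, 16213 to 16417 CPM in B16F0 and 15250 to 15501 CPM in B16F10, below the untreated levels in the B16 lines, and their part in the changes was not tested.

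Cdkn1b had 166 and 163 CPM in untreated Melan-A and 210 and 212 CPM with SX-682. In B16F0 it went from 118 and 117 CPM to 239 and 227 CPM, and in B16F10 from 124 CPM in both libraries to 234 and 235 CPM. In each line both treated libraries were above both controls, and the treated levels of the B16 lines were above that of treated Melan-A although the untreated ones were below it. The rise was 1.28-fold in Melan-A (log2 fold change 0.36, SE 0.027, adjusted p = 2.7e-12), 1.99-fold in B16F0 (0.99, SE 0.028, adjusted p = 2.9e-22) and 1.88-fold in B16F10 (0.91, SE 0.028, adjusted p = 1.5e-21).

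Cdkn1a went from 192 CPM in both libraries to 268 and 265 CPM in Melan-A, and from 742 and 697 CPM to 998 and 963 CPM in B16F0. In B16F10 it had 497 and 495 CPM without and 500 and 502 CPM with SX-682. The treated libraries were above the controls in all 3 lines, but in B16F10 by a margin far smaller than in the others. The rise was 1.39-fold in Melan-A (log2 fold change 0.48, SE 0.026, adjusted p = 1.3e-15) and 1.36-fold in B16F0 (0.45, SE 0.025, adjusted p = 1.8e-15). In B16F10 the log2 fold change was 0.016, with a 95% interval of -0.035 to 0.067 (adjusted p = 0.65).

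Cdkn1c had 12.1 and 12.5 CPM in untreated Melan-A and 9.16 and 9.51 CPM with SX-682, and 1.40 and 1.55 CPM without and 1.72 and 1.60 CPM with SX-682 in B16F0. It was lower with SX-682 in both Melan-A libraries and passed the test there (log2 fold change -0.40, SE 0.11, adjusted p = 0.0042), but without Melan-A SX-682 replicate 1 the log2 fold change was -0.36 with an adjusted p of 0.067. In B16F0 the log2 fold change was 0.18 with a 95% interval of -0.18 to 0.53 (adjusted p = 0.43). No fold is given for B16F10, in which both groups were at or under the floor.

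Among the INK4 genes of Melan-A, Cdkn2a went from 187 CPM in both untreated libraries to 215 and 212 CPM, a 1.14-fold rise (log2 fold change 0.19, SE 0.033, adjusted p = 1.9e-05). Cdkn2b went from 41.9 and 43.7 CPM to 74.7 and 71.8 CPM, a 1.71-fold rise (log2 fold change 0.77, SE 0.055, adjusted p = 7.3e-12). The neighboring genes therefore rose by unequal amounts, and both treated libraries were above both controls for each. Neither gene had a count in a B16 library with SX-682, which allows a level of up to 0.0623 CPM in B16F0 and 0.0513 CPM in B16F10.

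Cdkn2c went from 99.8 and 98.4 CPM to 43.6 and 40.3 CPM in Melan-A. In B16F0 it had 62.3 and 61.7 CPM without and 56.1 and 62.6 CPM with SX-682, and in B16F10 88.2 and 93.9 CPM without and 79.1 CPM in both libraries with SX-682. The groups were far apart in Melan-A, overlapped in B16F0 and lay apart by less in B16F10. The log2 fold change was -1.24 in Melan-A (SE 0.044, adjusted p = 6.2e-20) and -0.20 in B16F10 (SE 0.043, adjusted p = 0.00016). In B16F0 it was -0.07 with a 95% interval of -0.16 to 0.02 (adjusted p = 0.23), and without B16F0 SX-682 replicate 2, the shallowest library, it was -0.14 with an adjusted p of 0.012.

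Cdkn2d went from 43.8 and 44.0 CPM to 38.2 and 38.7 CPM in Melan-A and from 70.9 and 69.4 CPM to 65.7 and 61.4 CPM in B16F0. In B16F10 it had 72.5 and 69.8 CPM without and 70.2 and 71.2 CPM with SX-682. The treated libraries were below the controls in Melan-A and B16F0 and overlapped them in B16F10. The log2 fold change was -0.19 in Melan-A (SE 0.040, adjusted p = 0.00019) and -0.14 in B16F0 (SE 0.039, adjusted p = 0.0032). The fall in B16F0 was -0.09 with an adjusted p of 0.090 without B16F0 SX-682 replicate 2. In B16F10 the log2 fold change was -0.0082, with a 95% interval of -0.088 to 0.071 (adjusted p = 0.92).

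**Figure D4:**
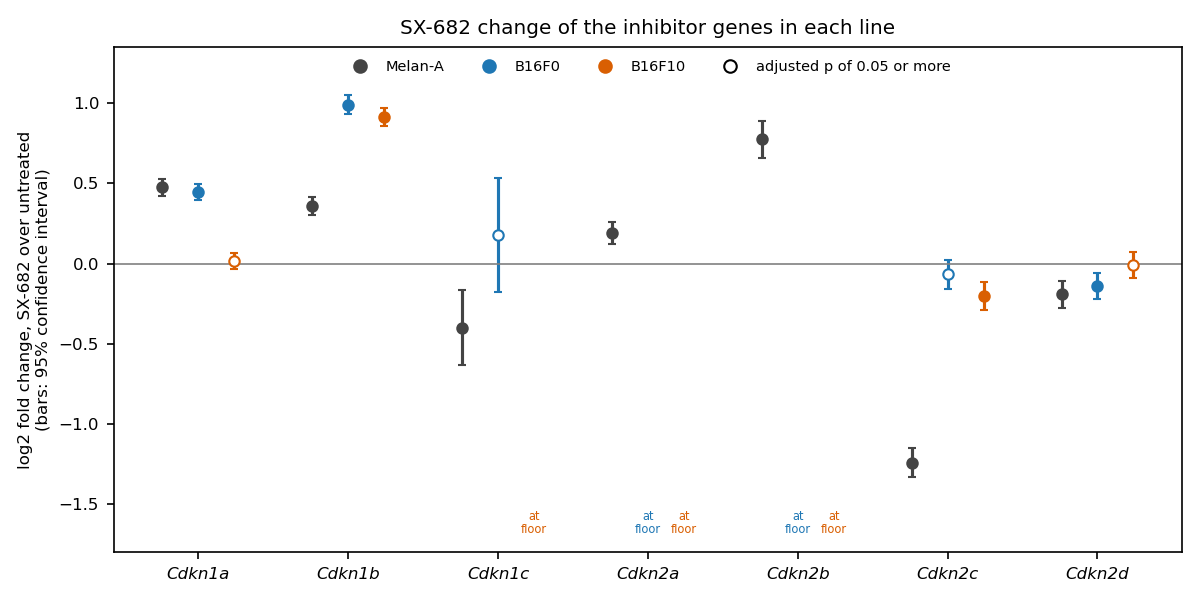
Log2 fold change of each inhibitor gene with SX-682 over untreated (vertical axis) in Melan-A, B16F0 and B16F10, with 95% confidence intervals as bars and open points for an adjusted p of 0.05 or more. Cdkn1b lies above 0 in all 3 lines, Cdkn1a at 0.016 in B16F10, and Cdkn2c at -1.24 in Melan-A.

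Whether the change with SX-682 differed between lines was tested as a difference of log2 fold changes within the same fit. The 4 genes that could be measured in all 3 lines (Cdkn1a, Cdkn1b, Cdkn2c and Cdkn2d) all passed a joint test of any difference among the lines, where 47.4% of all genes did, with adjusted p-values of 3.0e-12, 4.5e-14, 1.1e-15 and 0.019. For Cdkn1b, the change was larger by 0.63 in B16F0 than in Melan-A (SE 0.039, adjusted p = 1.2e-13) and by 0.55 in B16F10 than in Melan-A (SE 0.039, adjusted p = 1.8e-12). The changes of Cdkn1b in the B16 lines differed by -0.08 (95% interval -0.16 to 0.0046, adjusted p = 0.16), but the difference passed the test by DESeq2 (adjusted p = 0.036) and without B16F0 SX-682 replicate 2 (-0.12, adjusted p = 0.021). For Cdkn1a, the change in B16F10 was smaller than in Melan-A (difference -0.46, SE 0.036, adjusted p = 1.3e-11) and smaller than in B16F0 (-0.43, SE 0.035, adjusted p = 7.0e-11). The difference for Cdkn1a between B16F0 and Melan-A was -0.03 (95% interval -0.10 to 0.04, adjusted p = 0.57).

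For Cdkn2c, the fall in Melan-A differed from the values in B16F0 by 1.17 (SE 0.063, adjusted p = 3.2e-15) and in B16F10 by 1.04 (SE 0.061, adjusted p = 3.0e-14). The difference between the B16 lines was -0.14 for this gene (adjusted p = 0.10), and it was -0.22 with an adjusted p of 0.0052 without B16F0 SX-682 replicate 1. It also passed the test with at least 10 counts in every library (adjusted p = 0.039), in a separate fit (0.048) and by DESeq2 (0.0497). For Cdkn2d the differences were small. That of B16F10 minus Melan-A was 0.18 (SE 0.056, adjusted p = 0.010), and the adjusted p was 0.069 without Melan-A SX-682 replicate 1, 0.10 without B16F10 control replicate 2 and 0.053 without B16F10 SX-682 replicate 2. For Cdkn1c the change in B16F0 minus that in Melan-A was 0.57 (SE 0.21, adjusted p = 0.031), which rests on about 100 counts a library in B16F0. The adjusted p was 0.087 with no filter on low counts. The call was also lost when any 1 Melan-A library, B16F0 control replicate 1 or B16F0 SX-682 replicate 1 was left out. The difference was 0.49 to 0.59 in these fits, and the B16F10 libraries are not part of it. Over the members, 3 of 5 differed between B16F0 and Melan-A, with 34.4% of all genes called. Between B16F10 and Melan-A 4 of 4 differed, with 33.8% called, and between the B16 lines 1 of 4, with 30.3% called.

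Per length, the summed level of the 7 genes was higher with SX-682 in every line, at 401 ± 3.80 CPM per kilobase for Melan-A, 390 ± 9.14 for B16F0 and 267 ± 0.977 for B16F10 (SD, n = 2). The share of the INK4 genes was lower with SX-682 in each line, at 68.5% ± 0.252 for Melan-A, 16.01% ± 0.324 for B16F0 and 27.9% ± 0.0643 for B16F10. By the longest transcript this share with SX-682 was 65.1%, 11.6% and 21.8% in the same order. In Melan-A the level of the INK4 genes was itself higher with SX-682 (255 ± 1.02 without and 275 ± 3.62 CPM per kilobase with it), and that of the Cip/Kip genes went from 96.2 ± 0.471 to 126 ± 0.187. The INK4 level went from 67.7 ± 0.859 to 62.5 ± 0.199 for B16F0 and from 79.1 ± 0.317 to 74.4 ± 0.444 for B16F10. By the longest transcript, the summed level with SX-682 was higher for B16F0 (592 ± 14.1) than for Melan-A (515 ± 4.72), the reverse of the order of the means over all exons. Cdkn2a and Cdkn1a kept the largest share in Melan-A and the B16 lines respectively. The share of Cdkn1b in B16F10 went from 11.1% to 19.3%, the largest move of a single gene's share there.

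The proteins that the inhibitors bind, the factors downstream of them and their regulators were described by lists that were chosen with results of these data already known. Of 12 cyclins and kinases bound by the inhibitors or driven with them, none rose with SX-682 in any line. The number that fell was 12 in Melan-A, 11 in B16F0 and 12 for B16F10, where 24.7%, 25.0% and 25.3% of all genes fell. The list's median log2 fold change was -0.58, -0.49 and -0.32 in these lines, beside a median of 0 for all genes. Ccne2, which codes for cyclin E2, the partner of CDK2, had log2 fold changes of -1.72, -1.96 and -2.26 in the same order. Ccnd1, which codes for cyclin D1, fell by 0.56 in Melan-A, by 0.79 in B16F0 and by 1.11 in B16F10.

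Of 11 pocket protein and E2F genes, 7 fell and 3 rose in Melan-A, 8 fell and 1 rose in B16F0, and 9 fell and 2 rose in B16F10, with medians of -0.56, -0.37 and -0.44. Of all genes, 24.7%, 25.0% and 25.3% fell and 23.4%, 25.1% and 25.5% rose in these lines. E2f8, a repressor of E2F targets, had log2 fold changes of -1.59, -1.35 and -1.07 in Melan-A, B16F0 and B16F10, and E2f7, another such repressor, of -0.83, -0.63 and -1.13. E2f2 had log2 fold changes of -1.16, -0.92 and -2.00 in the same order, the last being the largest fall of the list in B16F10. Of 12 genes for parts of the ubiquitin ligases that turn over Cip/Kip proteins, 8 fell and none rose in Melan-A, 7 fell and 3 rose in B16F0, and 7 fell and 2 rose in B16F10, beside the same shares of all genes. Skp2, the F-box protein that recognizes p27, had log2 fold changes of -1.04, -0.71 and -1.23.

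Of 14 tested genes among 15 other targets of p53, 5 rose and 3 fell in Melan-A, 13 rose and none fell in B16F0, and 8 rose and 2 fell in B16F10, with medians of 0.09, 0.49 and 0.31, where 23.4%, 25.1% and 25.5% of all genes rose. Gadd45a, a stress sensor that acts on the cell cycle, rose in every line, with a log2 value of 1.21 in Melan-A against 2.38 in B16F0 and 2.84 in B16F10. Bbc3, which codes for the apoptosis regulator PUMA, rose by 1.41, 2.12 and 2.08 in the same order. Both rose in B16F10, the line in which Cdkn1a did not pass the test. In untreated cells, 9 of these 14 genes were higher in B16F0 than in Melan-A and 10 of 14 in B16F10, Ccng1 by log2 fold changes of 2.82 and 3.32, where 35.3% and 33.4% of all genes were higher. The other 5 were lower in B16F0 and the other 4 in B16F10, where 40.6% and 40.8% of all genes were lower, and Plk2, which codes for a stress-responsive kinase, had log2 fold changes of -2.36 and -1.68.

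Of the 16 genes listed as activators of inhibitor genes, 9 rose and 4 fell in Melan-A. In the B16 lines 15 could be compared, since Trp63 was at or under the floor there. Of these, 9 rose and 4 fell in B16F0, and 9 rose and 5 fell in B16F10. Of all genes, 48.2%, 50.1% and 50.8% changed in either direction in Melan-A, B16F0 and B16F10. Mitf, the melanocyte master regulator, fell by 0.36 in Melan-A, by 2.11 on the log2 scale in B16F0 and by 1.14 in B16F10, and Egr1, an immediate early factor, rose in Melan-A (1.36) and fell in B16F0 (-1.76) and B16F10 (-2.44). Of 9 tested genes among 10 repressors, 5 rose and 2 fell in Melan-A, 3 rose and 4 fell in B16F0, and 4 rose and 2 fell in B16F10, beside the same shares of all genes. Myc, a repressor of Cdkn1a and Cdkn2b, rose in Melan-A by a log2 fold change of 0.59 and fell by 0.11 in B16F0 and by 0.48 in B16F10. In untreated cells, 3 of the 16 activators were higher and 12 lower in B16F0 than in Melan-A, and 5 were higher and 10 lower in B16F10. Of the 9 tested repressors, 4 were higher and 3 lower in untreated B16F0 than in Melan-A, and 6 higher and 3 lower in B16F10. Of all genes, 35.3% and 33.4% were higher and 40.6% and 40.8% lower in these comparisons. Tbx2, a repressor of Cdkn1a and Cdkn2a, was higher by log2 fold changes of 2.20 in B16F0 and 1.61 in B16F10. Id1, also on the list, was lower (-2.27 and -2.58), and the part of either gene was not tested.

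**Figure D5:**
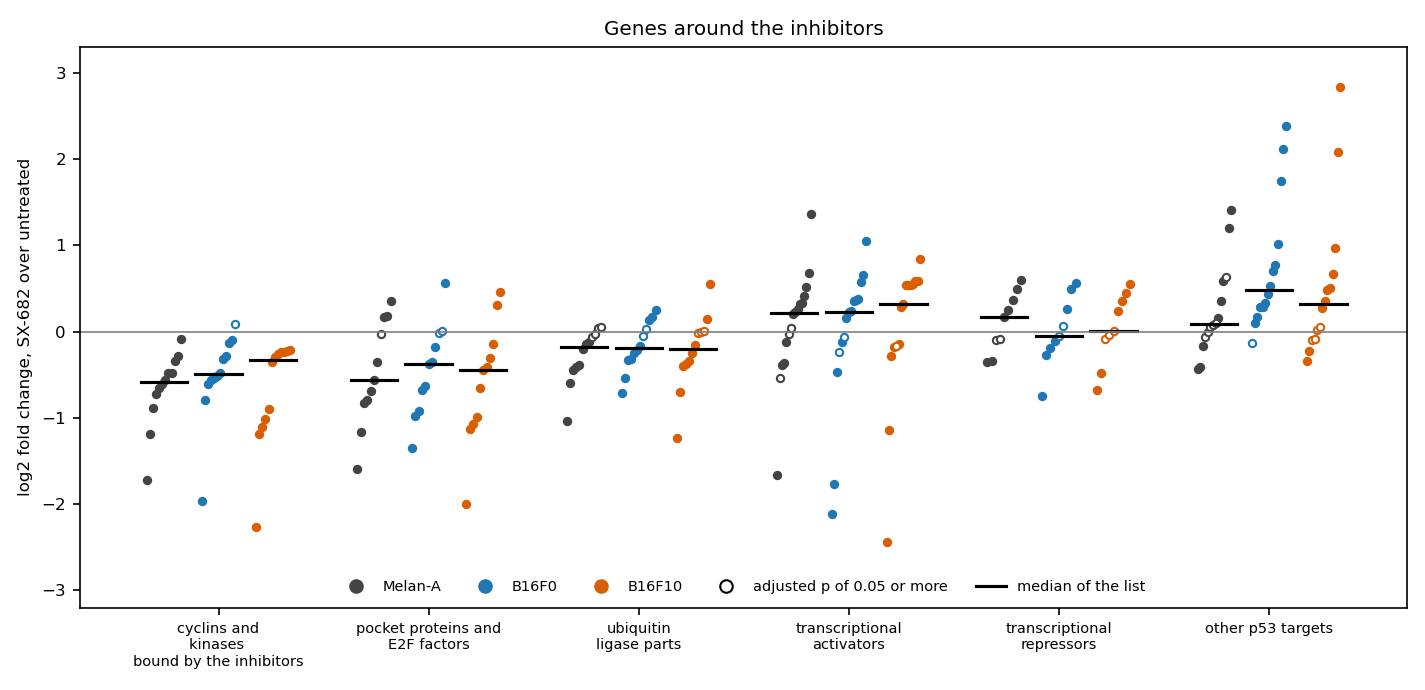
Log2 fold change with SX-682 over untreated (vertical axis) of the genes in 6 lists around the inhibitors, for Melan-A, B16F0 and B16F10, with a point for each gene, open where the adjusted p is 0.05 or more, and a black line at the list's median. All cyclins and kinases but 1 in B16F0 lie below 0, and the median of the other p53 targets is 0.09 for Melan-A, 0.49 for B16F0 and 0.31 for B16F10.

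For each inhibitor gene, the genes with the most similar pattern were taken by Pearson's r of log2 CPM over the 12 libraries, which share 6 groups of 2 and so hold few independent points. Cdkn1a was most like Rsl1d1 (r = 0.995), Spg11 (0.993) and Slc39a3 (0.990), and Cdkn1b most like Gpcpd1 (0.992), Poldip3 (0.988) and Gadd45a (0.987). Cdkn2c was matched less closely than the other members, by Ahctf1 (0.967), Myo18a (0.958) and Hmgn3 (0.948), and Cdkn2d by Dock3 (0.997), Pmp22 (0.994) and C330018D20Rik (0.994). Cdkn2a was most like H2-DMa (0.998), Igtp (0.998) and Chadl (0.996), Cdkn2b like Lgmn, H2-DMa (both 0.998) and Helz2 (0.997), and Cdkn1c like Rai14, Clu and Arhgap28 (each 0.997). For the last 3 members, a gene that is high in Melan-A and near 0 elsewhere reaches such an r from the difference between lines alone.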

How the data were processed

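RNA-seq libraries of 3 mouse lines, untreated and with SX-682, were analysed in 6 groups of 2, as the sample labels give them. The authors deposited raw read counts per gene for 34513 genes with GRCm38 coordinates, Ensembl identifiers, symbols and exon lengths, without normalization. The submitters' processing notes name cutadapt, STAR, DESeq2 and mm10, with no versions used here, and the counting program and its use of strand are not given in the sources used here. All 12 columns were matched to libraries by the sample descriptions. The members and gene lists were chosen with earlier results of these data known. Named genes were all 7 members, genes within 1 Mb of Cdkn2a and Cdkn2b with over 3 counts in a library, the genes of each list with the 3 largest changes past the threshold in a comparison, and the 3 genes most like each member with a mean log2 CPM of at least 1 (prior count 2, 10956 or 10957 genes compared). Genes within 250 kb of Cdkn1c were added after seeing the data.

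Counts were fitted in edgeR 4.0.16 (R 4.3.3) with quasi-likelihood F-tests over all 12 libraries, TMM scaling, filterByExpr (18338 genes passed) and a prior count of 0.125; SEs were derived from the F statistic and adjusted p-values are Benjamini-Hochberg over all genes tested. The fit had 6 residual degrees of freedom. Replicates differed by more than counting noise, and each was kept as a sample. A fold against a group at or under 3 counts per library is printed as a lower bound; with both groups there, no fold is printed. The fits were tested on simulated counts. Alternatives were DESeq2 1.42.0, RLE, upper-quartile and no scaling, filtering by a minimum of 10 counts in each library or not at all, separate fits per comparison, a replicate block, a prior count of 2, a threshold of 0.01 and each library left out. Promoter windows came from RefSeq, and positions from GENCODE M21.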

Additional observations from a re-analysis of the deposited data

Results flagged for a closer look

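The change with SX-682 differed between the lines by a joint test for 4 of the 4 inhibitor genes that could be measured in all 3 lines, where 47.4% of all genes passed it, and these are given as values with no explanation. The log2 fold change of Cdkn2c ranged over 1.17 between the 3 lines, from -1.24 in Melan-A to -0.07 in B16F0. That of Cdkn1b ranged over 0.63, from 0.36 in Melan-A to 0.99 in B16F0. That of Cdkn1a ranged over 0.46, from 0.016 in B16F10 to 0.48 in Melan-A. That of Cdkn2d ranged over 0.18, from -0.19 in Melan-A to -0.0082 in B16F10. The change of Cdkn1c in B16F0 was 0.57 above that in Melan-A on the log2 scale, and B16F10 could not be compared for this gene. This difference passed edgeR's quasi-likelihood test (adjusted p = 0.031) but not at a threshold of 0.01, and the adjusted p was 0.087 with no filter on low counts. The call was kept by DESeq2. It was lost when any 1 Melan-A library, B16F0 control replicate 1 or B16F0 SX-682 replicate 1 was left out. Groups of 2 libraries are too small to look for an outlying library.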

How the results depend on the processing

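With 2 libraries in a group, precision rests on the spread shared across genes, and a level under 3 counts in a library could not be told from 0. The calls of the 7 genes kept their direction under every alternative but 1: without scaling factors, Cdkn1b in B16F10 against B16F0 turned from 0.08 to -0.0086 on the log2 scale, and the cause was not tested. Over all alternatives, 19 values of single genes fell short of the threshold that they had passed, and 10 passed it that had not. Most of those lost were Cdkn1b in untreated B16F10 against B16F0, Cdkn1c in the SX-682 difference of B16F0 from Melan-A and Cdkn2d in that of B16F10 from Melan-A. The number of genes whose SX-682 change differed between B16F10 and B16F0 was 1, and it was 3 by DESeq2 and 2 with upper-quartile scaling, with no scaling, with at least 10 counts in every library and in a separate fit, and between 1 and 3 when a library was left out; B16F0 SX-682 replicate 1 gave 3 and B16F0 SX-682 replicate 2 gave 2. Requiring at least 10 counts in every library left 4 genes called in untreated B16F0 against Melan-A, 4 in B16F10 against Melan-A and 4 with SX-682 in Melan-A, since Cdkn1c, Cdkn2a and Cdkn2b were then not tested. In B16F10 against B16F0 it left 2 genes called. There Cdkn1c was not tested and Cdkn1b fell short of the threshold (log2 fold change 0.06, adjusted p = 0.055 by edgeR's test). Without scaling factors, the median of all genes was -0.29 in untreated B16F10 against Melan-A, in place of -0.10, with 4694 genes higher and 8998 lower in place of 6119 and 7482. Deviations of control and treated libraries with the same replicate number were not related (correlations of -0.028, -0.011 and -0.0089 in Melan-A, B16F0 and B16F10). No pairing by replicate number was thus seen in the counts, and the labels do not say whether such libraries were made together. The replicate block changed none of the 48 results for single genes.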
